A study of Mus musculus with 153 samples.

Results

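Ribosome-bound RNA of parvalbumin interneurons was compared between mice that received a foot shock in a new context and mice that stayed in the home cage, in the set labelled 15 min. The comparison used 9 of the 153 samples of the series, chosen by their labels alone: 5 purified shock libraries and 4 purified home cage libraries of the Pvalb line. All of these mice carried the genotype Pvalb.Cre/TRAPfl, in which Cre is driven from the parvalbumin gene and a floxed TRAP allele tags ribosomes in cells that have expressed Cre. RNA came from dorsal hippocampus. A further group of 4 purified libraries from mice placed in the new context without shock (called box in the labels) shared the same fit and is given beside the results. The series text calls the samples biological replicates; whether animals were pooled, and their age, are not given in the sources used here. Y-linked genes placed 3 of 5 shock, 2 of 4 home cage and 2 of 4 box libraries as male.

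Translating ribosome affinity purification pulls down tagged ribosomes with the messages they carry, so its libraries report RNA on the ribosomes of the Cre-marked cells, together with whatever untagged RNA is carried along. Parvalbumin interneurons are the fast-spiking inhibitory cells of the hippocampus, which release GABA onto the cell bodies of pyramidal neurons. Strong synaptic input raises calcium and MAP kinase signalling in neurons and switches on immediate early genes such as Fos, Junb, Egr1 and Nr4a1 without new protein synthesis.

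The purified fraction was rich in class markers when set against the home cage lysate of the same table. Pvalb, which encodes the calcium-binding protein parvalbumin (chromosome 15, 78191114 to 78206400, minus strand, GRCm38), stood at 734 ± 133 CPM (SD, n = 4; CPM are counts scaled to library size) in purified home cage libraries and at 16.8 ± 2.92 CPM (SD, n = 3) in home cage lysates. Gad1, which makes GABA, stood at 2596 ± 344 and 339 ± 25.9 CPM in the same libraries. Of the markers of other cells, Slc17a7 and Cx3cr1 were lower but not at 0. Slc17a7, the vesicular glutamate transporter of pyramidal neurons, was at 258 ± 34.3 CPM in the purified home cage libraries and 1182 ± 126 CPM in the lysates. Cx3cr1, a microglial receptor, was at 5.89 ± 0.614 and 22.9 ± 2.10 CPM. The somatostatin neuron marker list summed to 1191 to 4089 CPM in the purified home cage libraries, beside 2668 to 3151 CPM for the parvalbumin list. Total counts of the 9 libraries ran from 66796088 to 97104901.

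The 5 shock libraries differed from each other in their cell type markers, so values without libraries 1 to 3, or without 4 and 5, are given beside many of the results. Shock libraries 1, 2 and 3 held Pvalb at 497, 238 and 281 CPM, whereas shock libraries 4 and 5 held it at 1154 and 926 CPM. The home cage libraries lay between, at 903, 702, 750 and 581 CPM. Slc17a7 went the other way, at 626, 1132 and 1163 CPM in shock libraries 1 to 3 and 166 and 162 CPM in shock libraries 4 and 5, against 209 to 282 CPM in the home cage. Summed over their marker lists, astrocyte genes ranged from 1580 to 6033 CPM in the shock group and from 2477 to 2947 CPM in the home cage group, and microglial genes from 84.3 to 461 CPM against 150 to 190 CPM. No gene of these 2 lists was at 0 in all 9 libraries, while 4 of 5 blood markers were. Other lists did not follow this split. Oligodendrocyte genes summed to 1399 to 3059 CPM in the shock group and 1059 to 3757 CPM in the home cage group. The mural list, as a median log2 ratio to the home cage mean, was 0.32, 0.70, 0.65, 0.33 and 0.62 in shock libraries 1 to 5. In the home cage libraries it ran from -0.47 to 0.37. In bulk RNA, fewer cells of a type and less RNA per cell cannot be told apart. With 126 arrangements of the libraries, no single score could pass after adjustment over 17 measures, so the group tests of the scores are little more than a description. The own-class score, which is the mean log2 CPM of the parvalbumin and general GABA lists minus that of the pyramidal and non-neuronal lists, was 1.12 ± 1.53 after shock (SD, n = 5) and 1.69 ± 0.23 in the home cage (SD, n = 4; exact two-sided permutation p = 0.516, adjusted over 17 measures 0.810).

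**Figure D1:**
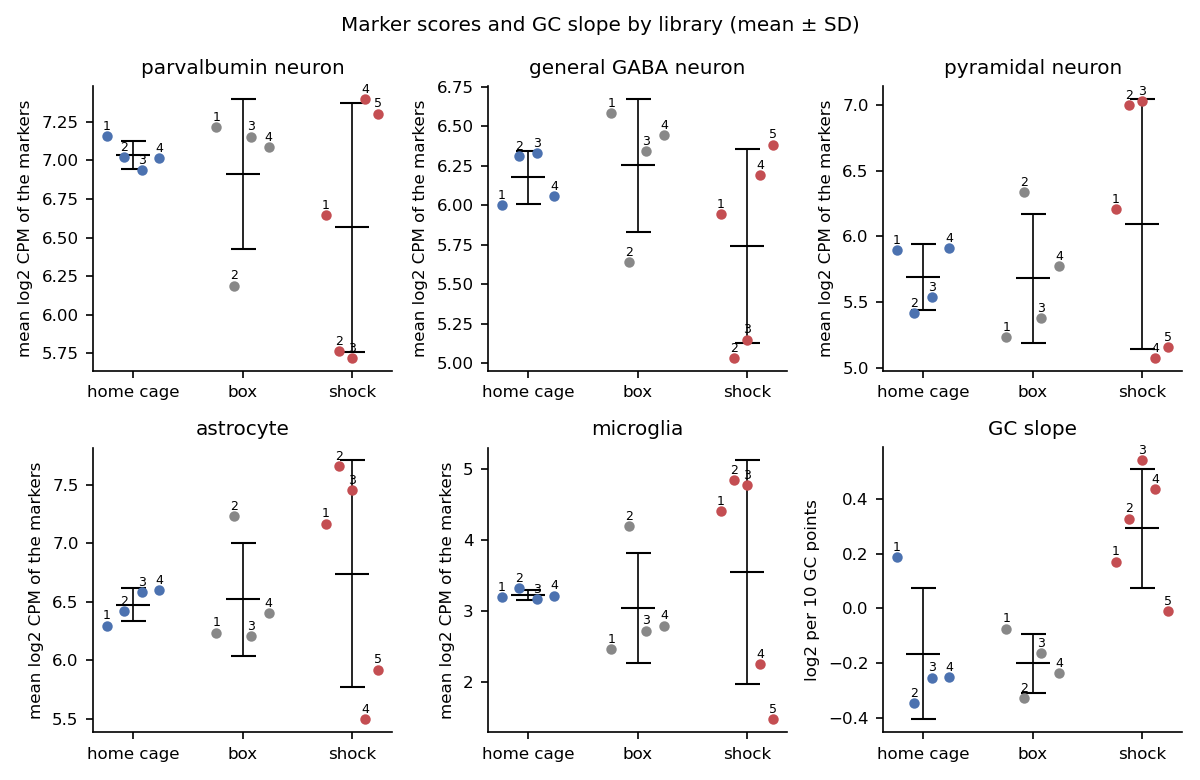
Mean log2 CPM of 5 marker lists, and the slope of a library's expression on the GC content of genes (log2 per 10 percentage points), for each purified library of the 15 min Pvalb set; digits are library numbers, bars the mean ± SD of a group. The shock libraries span a wider range than the home cage libraries in each of the 5 marker panels, with libraries 1 to 3 on one side of the home cage group and 4 and 5 on the other in the pyramidal, astrocyte and microglia panels.

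Base composition also moved with the groups, and its part in the results was not tested beyond the fits named here. The slope of gene expression on GC content, in log2 units per 10 percentage points of GC, was 0.29 ± 0.22 in shock libraries (SD, n = 5) and -0.17 ± 0.24 in home cage libraries (SD, n = 4; exact two-sided permutation p = 0.0397, adjusted over 17 measures 0.675). The 3 home cage libraries 2, 3 and 4 lay from -0.35 to -0.25 and home cage library 1 at 0.19, inside the shock range of -0.01 to 0.54. 

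Across all genes, the shock group did not differ from the home cage group past the threshold for any single gene. Of 15484 genes tested with edgeR's quasi-likelihood test, 0 (0.0%) had a Benjamini-Hochberg adjusted p under 0.05, and the smallest adjusted p was 0.192. At an unadjusted p under 0.05 there were 2413 genes (15.6%), 1278 of them higher (8.25%) and 1135 lower (7.33%) after shock. This count was 859 with offsets for GC content and length and 363 with the GC slope as a covariate. It was 719 with the own-class score and GC slope as covariates, and 2942 with the own-class score alone. The GC fits were added after the data were seen, and what lowered the count was not tested. In 414 genes (2.67%) every shock library was above every home cage library, and in 186 genes (1.2%) every shock library was below, 3.87% in either direction. DESeq2 called 390 genes, 5.09% of the 7655 to which it gave an adjusted p, 235 higher (3.07%) and 155 lower (2.02%). Limma voom with sample quality weights called 550 of 15484 (3.55%), 242 higher (1.56%) and 308 lower (1.99%). These calls shared 234 genes, which is 60.0% of the DESeq2 calls and 42.5% of the limma calls. Because edgeR was the main test, the directions below are differences of level and not calls unless a tool is named.

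The count depended on which shock libraries were used. Without shock library 5, edgeR called 6 genes: Arc, Aifm3 and Junb higher, and Tspan2, Neto2 and Klhl12 lower. Leaving out each of the other 8 libraries in turn gave 0 calls. With shock libraries 4 and 5 left out together, the number was 1668, of which 734 were higher, and with shock libraries 1, 2 and 3 left out it was 1 (Cmbl, lower). With the own-class score as a covariate, 4 genes were called: Arc, Ipo13 and Junb higher, and Kctd4 lower. When the covariate was the non-neuronal score, 3 genes were called, Arc, Ipo13 and Junb. The choice to leave out shock libraries 1 to 3, or 4 and 5, together was made after the data were seen.

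Immediate early genes were mostly higher after shock. Fos, which pairs with Jun proteins to form the AP-1 transcription factor (chromosome 12, 85473890 to 85477273, plus strand), was at 17.4, 33.9, 24.9 and 20.3 CPM in the 4 home cage libraries and at 68.2, 64.2, 43.9, 55.9 and 40.9 CPM in the 5 shock libraries. Each shock library was above each home cage library. The log2 fold change was 1.06 ± 0.28 (SE; edgeR adjusted p = 0.239; DESeq2 adjusted p = 0.0218).

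Junb, a second AP-1 subunit (chromosome 8, 84974484 to 84978718, minus strand), was at 18.7, 18.7, 21.8 and 27.5 CPM in the home cage and at 91.0, 119, 122, 43.2 and 34.3 CPM after shock. The groups did not overlap, and shock libraries 1 to 3 stood apart from 4 and 5. Its log2 fold change was 1.76 ± 0.35 (SE; edgeR adjusted p = 0.192), 2.15 without shock libraries 4 and 5 and 0.85 without shock libraries 1 to 3. Junb overlaps the gene model of Prdx2, and since the libraries do not mark the strand, reads of overlapping genes cannot be told apart.

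Nr4a1, an orphan nuclear receptor induced by activity (chromosome 15, 101254269 to 101274795, plus strand), was at 25.6, 10.2, 14.7 and 17.4 CPM in the home cage and at 55.03, 60.4, 64.0, 44.8 and 33.5 CPM after shock. Here too the groups did not overlap. The log2 fold change of 1.48 ± 0.28 (SE; edgeR adjusted p = 0.192) was 1.23 without shock libraries 1 to 3 and 1.63 without 4 and 5.

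These 3 genes are shown by the 250 bases before their RefSeq start (GRCm38.p6), because each holds the core TGACG to which CREB, a transcription factor activated by calcium and cyclic AMP, binds in the cyclic AMP response element; capitals mark TGACG or its reverse complement CGTCA. The windows are chr12:85473640-85473889 on the plus strand for Fos, chr8:84978749-84978998 on the minus strand for Junb and chr15:101266596-101266845 on the plus strand for Nr4a1. The last lies inside the longer GENCODE gene model. Each is printed 5′ to 3′ on the gene's strand.
Fos: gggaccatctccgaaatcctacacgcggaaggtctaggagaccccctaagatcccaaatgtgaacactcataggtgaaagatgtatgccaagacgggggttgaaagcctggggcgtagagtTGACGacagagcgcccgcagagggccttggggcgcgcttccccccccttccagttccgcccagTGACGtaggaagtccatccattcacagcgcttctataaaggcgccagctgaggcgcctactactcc
Junb: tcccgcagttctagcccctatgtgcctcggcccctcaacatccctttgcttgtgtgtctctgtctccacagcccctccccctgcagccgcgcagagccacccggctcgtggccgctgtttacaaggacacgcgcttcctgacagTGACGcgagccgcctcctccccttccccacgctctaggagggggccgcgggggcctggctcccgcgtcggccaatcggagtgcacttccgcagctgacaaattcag
Nr4a1: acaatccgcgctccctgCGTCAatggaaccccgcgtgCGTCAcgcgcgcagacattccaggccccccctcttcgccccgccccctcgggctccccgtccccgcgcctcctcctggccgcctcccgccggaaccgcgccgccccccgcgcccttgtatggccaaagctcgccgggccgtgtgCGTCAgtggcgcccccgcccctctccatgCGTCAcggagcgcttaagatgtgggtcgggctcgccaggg
The core began 129 and 66 bases before the start in Fos, 106 in Junb, and 233, 213, 69 and 40 in Nr4a1. Of 32851 such windows in the table, 17.8% held TGACG on either strand, and 1.55% held the full palindrome TGACGTCA. Of the 36 rapid activity genes in the count table, 28 had an entry, with 39 windows, of which 23 (59.0%) held TGACG and 2 (5.13%) the palindrome. A match of letters is a description and not a binding site.

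Egr1, a zinc finger transcription factor, was at 48.1, 62.2, 43.9 and 37.7 CPM in the home cage and at 98.0, 108, 114, 79.9 and 75.6 CPM after shock, without overlap. Its log2 fold change of 0.86 ± 0.20 (SE; edgeR adjusted p = 0.239) was 0.32 with offsets for GC content and length. Arc, whose protein acts at synapses to control AMPA receptor endocytosis, had the largest log2 fold change among the rapid activity genes with at least 10 CPM in every library, 2.32 ± 0.41 (SE; edgeR adjusted p = 0.192). It was at 54.98, 21.02, 35.5 and 23.0 CPM in the home cage and at 221, 309, 244, 103 and 49.7 CPM after shock. Shock library 5 lay below home cage library 1, so the groups overlapped. The Arc difference was 2.76 without shock libraries 4 and 5 and 1.21 without 1 to 3, and it was called by DESeq2 (adjusted p = 3.25e-05), by limma voom (adjusted p = 0.0183) and by edgeR with either the own-class or the non-neuronal covariate.

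**Figure D2:**
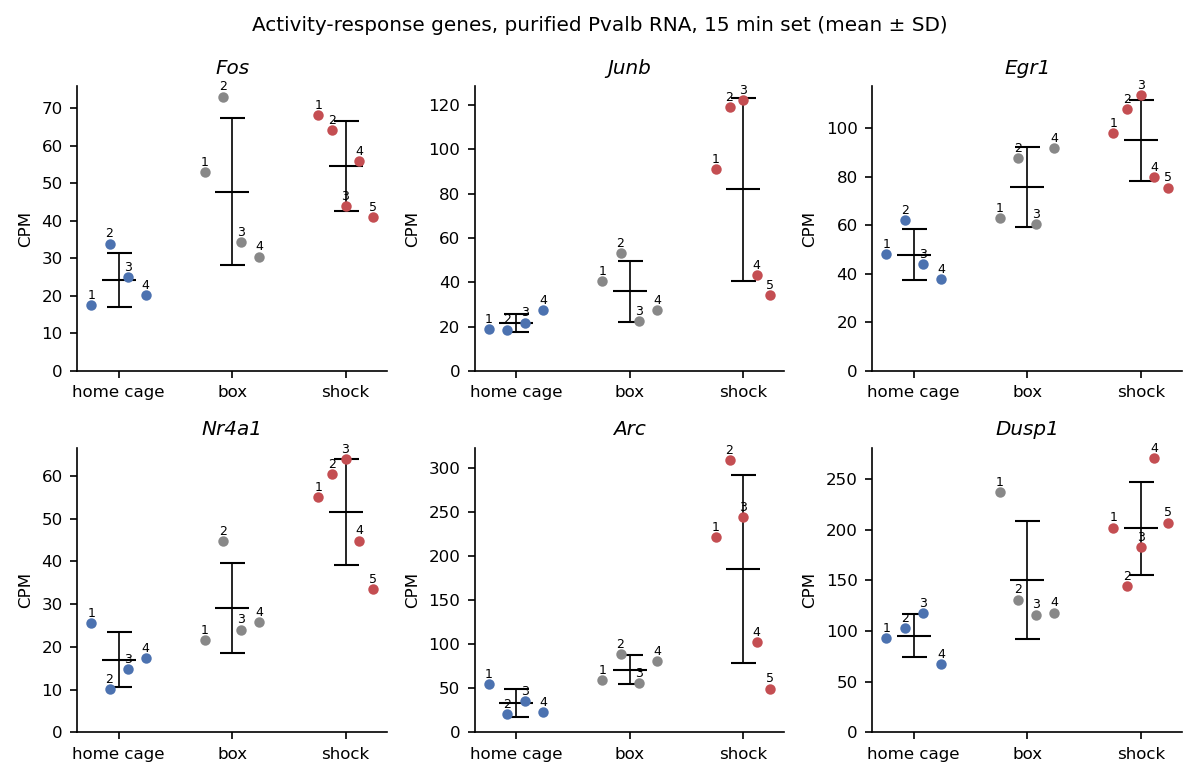
Level in CPM of 6 activity-response genes in each purified library of the 15 min Pvalb set (digits are library numbers; bars show the mean ± SD of the 4 home cage, 4 box and 5 shock libraries). For Fos, Junb, Egr1, Nr4a1 and Dusp1 all shock points lie above all home cage points. For Junb, Egr1, Nr4a1 and Arc shock libraries 1 to 3 lie above 4 and 5, and for Dusp1 they lie below.

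Other members of the rapid activity list showed both patterns. Of its 37 genes 36 were tested, 28 (77.8%) were higher after shock and 8 lower, 5 were higher without overlap (2.67% of all genes), and the median log2 fold change was 0.68, against 0.04 and 52.3% higher over all 15484 genes. Without shock libraries 1 to 3 the direction turned, with 16 of 36 higher and a median of -0.24. DESeq2 called 8 members higher and 0 lower, beside 3.07% and 2.02% of the 7655 genes to which it gave an adjusted p. A member without an adjusted p counted as not called. Limma voom called 7 higher and 1 lower, beside 1.56% and 1.99% of all genes. The fifth member without overlap was Ier2, a nuclear regulator, at 9.43 to 15.6 CPM in the home cage and 21.4 to 27.4 CPM after shock, and its difference was 0.94 without shock libraries 1 to 3 and 0.75 without 4 and 5. Egr4 (log2 fold change 1.47 ± 0.38, SE), Sik1, a kinase that restrains CREB coactivators (1.78 ± 0.55), and Per1 (0.90 ± 0.29) were higher with some overlap.

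Some induced transcription factors had their higher levels in shock libraries 1 to 3. Jun was at 162, 255 and 228 CPM in shock libraries 1 to 3 but at 46.1 and 34.1 CPM in 4 and 5, next to 38.3 to 81.5 CPM in the home cage. Nr4a2 was at 43.1, 73.9 and 83.4 CPM, then 13.3 and 18.1 CPM, against 13.7 to 43.1 CPM. The median over the whole list, as a log2 ratio to the home cage mean, was 0.87, 1.12 and 1.21 in shock libraries 1 to 3 and -0.12 and -0.18 in 4 and 5. In the same 3 libraries the pyramidal list was at 0.48, 1.26 and 1.28 and the microglial list at 1.07, 1.59 and 1.43. The part of these cells in the list's level was not tested. With the own-class score as a covariate the list median was 0.33, and with the GC and length offsets 0.24. Npas4, a factor specific to neurons, stayed at 0.05 to 3.91 CPM in the home cage and 0.373 to 7.04 CPM after shock (log2 fold change 0.80 ± 0.997, SE), and Fbxo33 (-0.80 ± 0.29) and the survival factor Mcl1 (-0.56 ± 0.23) were lower. The scaffold gene Homer1 was at 46.5 to 56.2 CPM in the home cage and 25.8 to 69.1 CPM after shock (-0.14 ± 0.23).

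Late effectors of activity had members on both sides. Of 30 delayed activity genes 12 were higher, and the median log2 fold change was -0.14. In either direction 0 had groups without overlap, beside 3.87% of all genes. Bdnf, a neurotrophin, was at 12.2 to 33.2 CPM in the home cage and 10.9 to 45.4 CPM after shock (log2 fold change 0.15 ± 0.41, SE). The members with the smallest p were Crh, the stress peptide (-1.28 ± 0.37), the GTPase Rheb (-0.57 ± 0.21), the chaperone Dnajb5 (0.82 ± 0.31) and Rgs2, which shortens G protein signals (-0.82 ± 0.33). DESeq2 called none of the 30, beside 3.07% higher and 2.02% lower among the 7655 genes to which it gave an adjusted p. Limma voom called 1 higher and 2 lower, beside 1.56% and 1.99% of all genes. The median was -0.36 without shock libraries 1 to 3.

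Of 14 feedback regulators of the MAP kinase pathway, 9 were higher and 5 lower, and 0 were called by edgeR. Dusp1, which removes phosphate from MAP kinases, was at 92.8, 103, 118 and 67.6 CPM in the home cage and at 202, 144, 183, 271 and 207 CPM after shock. No shock library reached down to the home cage range. Its log2 fold change was 0.99 ± 0.27 (SE; edgeR adjusted p = 0.239; DESeq2 adjusted p = 0.0274), 1.34 without shock libraries 1 to 3 and 0.70 without 4 and 5, so that here the libraries richest in Pvalb carried the larger difference. Dusp5 was at 3.63 to 5.32 CPM against 7.06 to 18.8 CPM (1.47 ± 0.39) and Dusp14 at 40.5 to 50.8 against 54.2 to 85.7 CPM (0.47 ± 0.18), also without overlap. These 3 of the 14 genes were higher without overlap, beside 2.67% of all genes, and the list median was 0.30.

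Genes induced by glucocorticoids were mostly higher: 19 of 22 tested, with a median of 0.56. Only Nfkbia, the inhibitor that holds NF-kappa-B in the cytoplasm, had groups without overlap, 1 of 22 beside 2.67% of all genes higher. It was at 26.5, 19.8, 21.1 and 20.96 CPM in the home cage and at 53.2, 70.3, 60.0, 35.0 and 36.3 CPM after shock (log2 fold change 1.08 ± 0.21, SE; edgeR adjusted p = 0.192; DESeq2 adjusted p = 7.4e-05). The box libraries held it at 24.3 to 26.0 CPM. Fkbp5 and Sgk1, which respond to the hormone in many tissues, overlapped between groups, with log2 fold changes of 0.62 ± 0.40 and 0.47 ± 0.32. The list median by library was 0.55, 1.02 and 1.06 in shock libraries 1 to 3 and -0.14 and 0.09 in 4 and 5, and the median log2 fold change without shock libraries 1 to 3 was 0.05.

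Of the 18 clock genes 10 were higher (median 0.12), 2 of them without overlap beside 2.67% of all genes. The median turned to -0.30 without shock libraries 1 to 3, with 6 of 18 higher, and to -0.12 with the GC and length offsets. Dbp, an output factor of the clock, was at 14.1 to 25.1 CPM in the home cage and 30.3 to 74.1 CPM after shock (1.28 ± 0.30; DESeq2 adjusted p = 0.0055). Nr1d1, the repressor REV-ERB alpha, was at 50.1 to 59.4 CPM in the home cage and at 138, 227 and 229 CPM in shock libraries 1 to 3, with 67.2 and 60.2 CPM in 4 and 5, so its log2 fold change of 1.23 ± 0.33 became 0.21 without shock libraries 1 to 3. Clock itself was lower (-0.72 ± 0.24), with overlap.

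Over all autosomal genes with an established symbol, the 12 with the smallest p among those higher in every shock library, 3 of them already described, were Ipo13, Nr4a1, Aifm3, Bop1, Cntfr, Junb, Nfkbia, Gramd1a, Scaf1, Phf1, Creld1 and Med25, with log2 fold changes from 0.82 to 1.76. Ipo13, an importin that carries proteins into and out of the nucleus (chromosome 4, 117894486 to 117914999, minus strand), was at 33.9, 36.9, 40.2 and 43.1 CPM in the home cage and at 122.9, 186, 154, 68.9 and 71.4 CPM after shock. Its difference was 1.4996 ± 0.27 (SE; edgeR adjusted p = 0.192), and 0.87 without shock libraries 1 to 3. Bop1, a ribosome assembly factor, was at 11.4 to 21.3 CPM and 29.9 to 62.1 CPM, with a difference of 1.30 ± 0.25 that was 1.28 without shock libraries 1 to 3 and 1.31 without 4 and 5. Cntfr, a receptor for ciliary neurotrophic factor, was at 22.6 to 36.8 CPM and 52.4 to 97.7 CPM (1.11 ± 0.22). Med25 belongs to the Mediator complex and Phf1 to Polycomb repressive complexes, and their differences were 1.30 ± 0.29 and 0.94 ± 0.20. Bop1 overlaps Mroh1 and Scx, and Phf1 overlaps Cuta, so reads could be shared. DESeq2 and limma voom each called all 12. Both used the counts from which the 12 were chosen by smallest p, so these calls are no separate evidence.

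These genes were rich in GC. The median GC content was 57.9% over the 12, 55.3% over the 398 of 414 non-overlapping higher genes with a value, and 49.9% over all tested genes. With the offsets for GC content and length, which moved the median of all genes from 0.04 to -0.08 (own-class covariate -0.09; without shock libraries 1 to 3, -0.09), the difference was 0.14 for Scaf1, 0.31 for Creld1, 0.35 for Phf1, 0.78 for Bop1, 0.87 for Ipo13, 1.01 for Nr4a1 and 1.17 for Aifm3. All 12 kept their direction and no gene was called in that fit.

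By the same rule, the 12 with the smallest p among the 186 genes lower in every shock library were Tspan2, Atg4c, Dstyk, Neto2, Rab27b, Azi2, Rab21, Rpp30, Prkaa2, Zfp37, Prkca and Arcn1, with log2 fold changes from -1.30 to -0.74. Tspan2, a tetraspanin of the cell membrane (chromosome 3, 102734529 to 102801513, plus strand), was at 96.4, 109, 111 and 143 CPM in the home cage and at 69.3, 41.5, 48.7, 39.2 and 59.5 CPM after shock. Its difference of -1.26 ± 0.21 (SE; edgeR adjusted p = 0.192) was -1.21 without shock libraries 1 to 3 and -1.30 without 4 and 5. Prkaa2, the alpha 2 catalytic subunit of AMP-activated kinase, was at 31.2, 25.6, 34.4 and 38.2 CPM and at 13.0, 16.8, 13.8, 15.1 and 12.4 CPM (-1.30 ± 0.30). All 5 shock libraries lay in a narrow band below the home cage. Atg4c, a protease of autophagy, was at 34.7 to 40.2 CPM and 15.2 to 24.9 CPM (-1.03 ± 0.21), and the kinase Dstyk at 35.8 to 52.7 and 17.1 to 30.4 CPM (-0.96 ± 0.20). Rab27b and Rab21, GTPases of vesicle traffic, differed by -1.05 ± 0.24 and -0.90 ± 0.20, and Arcn1, a coat protein of Golgi vesicles, by -0.78 ± 0.18. Prkca, protein kinase C alpha, differed by -0.76 ± 0.18; it overlaps Apoh, as Tspan2 does Tshb and Azi2 does Cmc1.

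DESeq2 called all 12 lower genes and limma voom 11 of them, again on the counts from which the genes were chosen. Their median GC content was 42.8%, and with the offsets their differences ran from -1.04 for Tspan2 to -0.53 for Azi2.

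**Figure D3:**
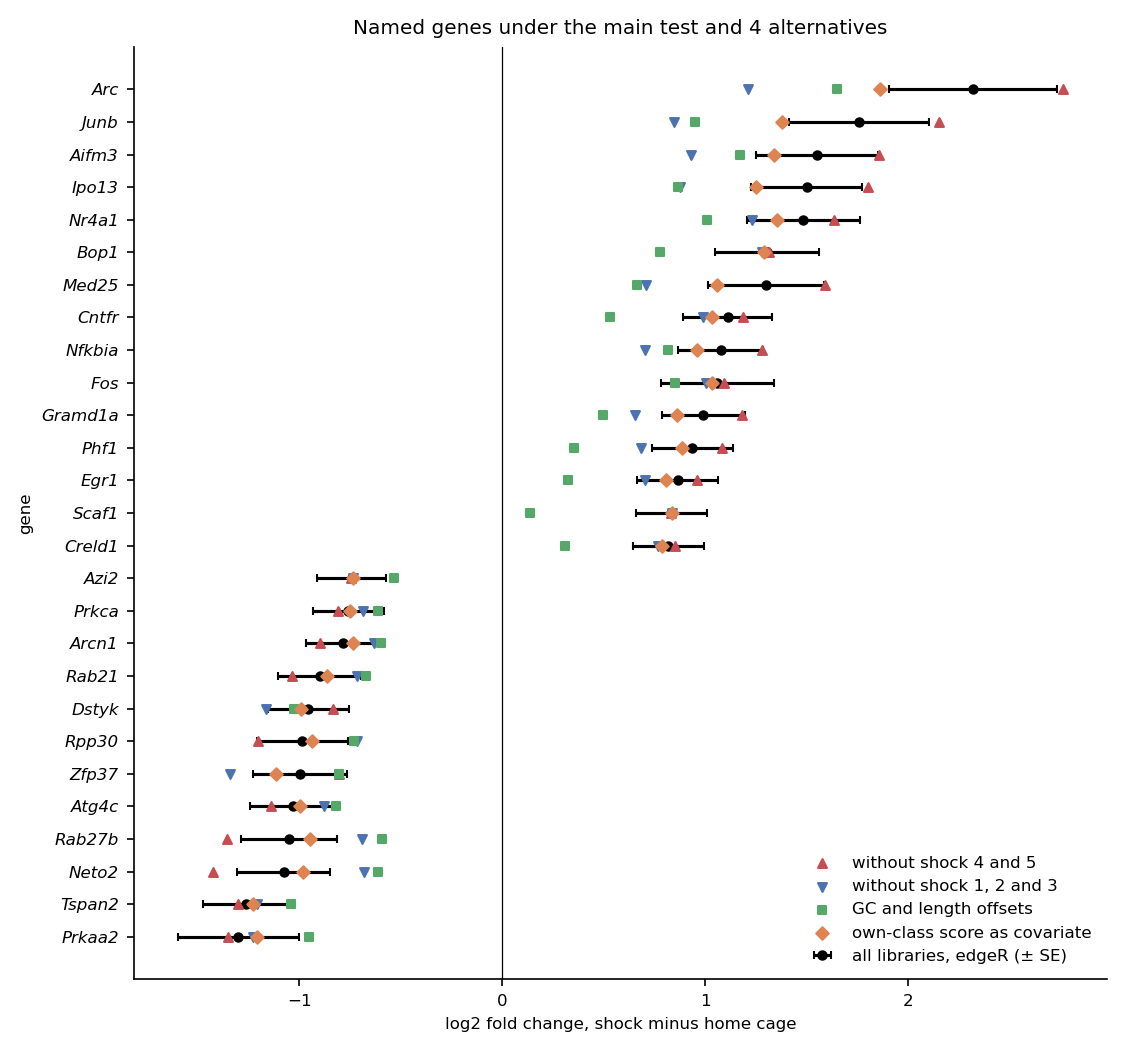
Log2 fold change, shock minus home cage, of the 24 named genes with Fos, Egr1 and Arc: black points with SE bars are edgeR estimates over all libraries, and coloured marks are estimates without shock libraries 4 and 5, without shock libraries 1 to 3, with GC and length offsets, and with the own-class score as a covariate. Every mark keeps the sign of its black point, and the GC and length offsets bring Scaf1 to 0.14. The 24 genes were chosen for groups without overlap, so leaving out shock libraries could hardly turn them.

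Glutamate receptor genes showed single members below the home cage beside a list median close to 0: 12 of 25 were higher, with a median of -0.003. Neto2, an auxiliary subunit of kainate receptors, was at 107, 108, 123.5 and 120.2 CPM in the home cage and at 57.0, 48.1, 40.6, 59.8 and 82.3 CPM after shock (-1.08 ± 0.23; DESeq2 adjusted p = 0.00386). Gria3, an X-linked AMPA receptor subunit, was at 150, 240, 181 and 242 CPM and at 133, 126, 130, 119 and 111 CPM (-0.84 ± 0.20; DESeq2 adjusted p = 0.00575). Neither gene overlapped between groups, and they were the 2 of 25 lower without overlap, beside 1.2% of all genes. Gria3 differed by -0.82 without shock libraries 1 to 3 and -0.85 without 4 and 5. Grin2c and Grin2d, NMDA receptor subunits, were higher in shock libraries 1 to 3, and their log2 fold changes of 1.64 ± 0.50 and 1.12 ± 0.35 became 0.38 and 0.23 without those libraries. Grin1, the obligate NMDA receptor subunit, was at 97.2 to 132 CPM and 128 to 202 CPM (0.53 ± 0.19).

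Genes of the interneuron's own machinery were lower in the 5 shock libraries together, and in 2 of 3 lists this turned without shock libraries 1 to 3. Of 22 fast-spiking channel and parvalbumin genes 7 were higher (median -0.28), of 8 GABA synthesis and transport genes 2 (median -0.40) and of 16 GABA-A receptor genes 4 (median -0.18). The 3 lists had 0 members without overlap, beside 3.87% of all genes in either direction. Without shock libraries 1 to 3, 18 of the 22 were higher (median 0.26) and 6 of the 8 (median 0.10), while the GABA-A receptor list stayed at 4 of 16 (median -0.26). Kcnc2, a potassium channel that lets these cells fire fast, was at 613, 307 and 270 CPM in shock libraries 1 to 3 and at 704 and 960 CPM in 4 and 5, against 645 to 1333 CPM in the home cage. Gad1 was at 1822, 800.2 and 752 CPM, then 2185 and 2557 CPM, against 2268 to 2949 CPM. Its log2 fold change was -1.39 without shock libraries 4 and 5 and -0.12 without 1 to 3, and that of Pvalb was -1.29 and 0.52 in the same fits. The sodium channel Scn1a (-0.77 ± 0.33) was at 154, 75.2 and 88.2 CPM in shock libraries 1 to 3 and at 172 and 259 CPM in 4 and 5, against 222 to 278 CPM in the home cage. The potassium channel gene Kcnc4 was higher, at 6.58 to 18.7 CPM in the home cage and 28.9, 57.0, 56.9, 15.0 and 9.44 CPM after shock.

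Postsynaptic scaffold genes lay on the opposite side, with 16 of 24 higher and a median of 0.27. Without shock libraries 1 to 3, in which the pyramidal markers were also high, 10 of 24 were higher and the median was -0.06, and with the GC and length offsets it was 0.01. The part of pyramidal RNA in these values was not tested. Lrrtm1, an adhesion protein of excitatory synapses, was at 70.3 to 100.5 CPM in the home cage and at 218, 321, 320, 112 and 101 CPM after shock, without overlap (1.09 ± 0.30; 0.24 without shock libraries 1 to 3). Nlgn3, a neuroligin, was at 15.6 to 22.5 and 22.9 to 37.5 CPM (0.69 ± 0.22; 0.47 without those libraries). Lrrtm1 and Nlgn3 were the 2 of 24 members higher without overlap, beside 2.67% of all genes. Dlg4, which encodes PSD-95, and Dlgap3 were higher in shock libraries 1 to 3 (1.27 ± 0.41 and 0.90 ± 0.28). Of 29 vesicle release genes 14 were higher (median -0.02), and 1 in each direction lacked overlap, beside 2.67% higher and 1.2% lower of all genes. Stx1a was higher (1.30 ± 0.41, and 0.16 without shock libraries 1 to 3). Syn3 was lower without overlap (-1.52 ± 0.49, with home cage library 4 at 57.2 CPM and the other 3 at 15.0 to 28.8 CPM), and Snap25 lower with overlap (-0.63 ± 0.29). Perineuronal net genes, which build the matrix around these cells, had 9 of 15 higher (median 0.05), with Bcan at 69.7 to 113 and 91.3 to 271 CPM (0.98 ± 0.27). This list turned to 5 of 15 higher (median -0.45) without shock libraries 1 to 3 and to 6 of 15 (median -0.20) with the offsets.

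**Figure D4:**
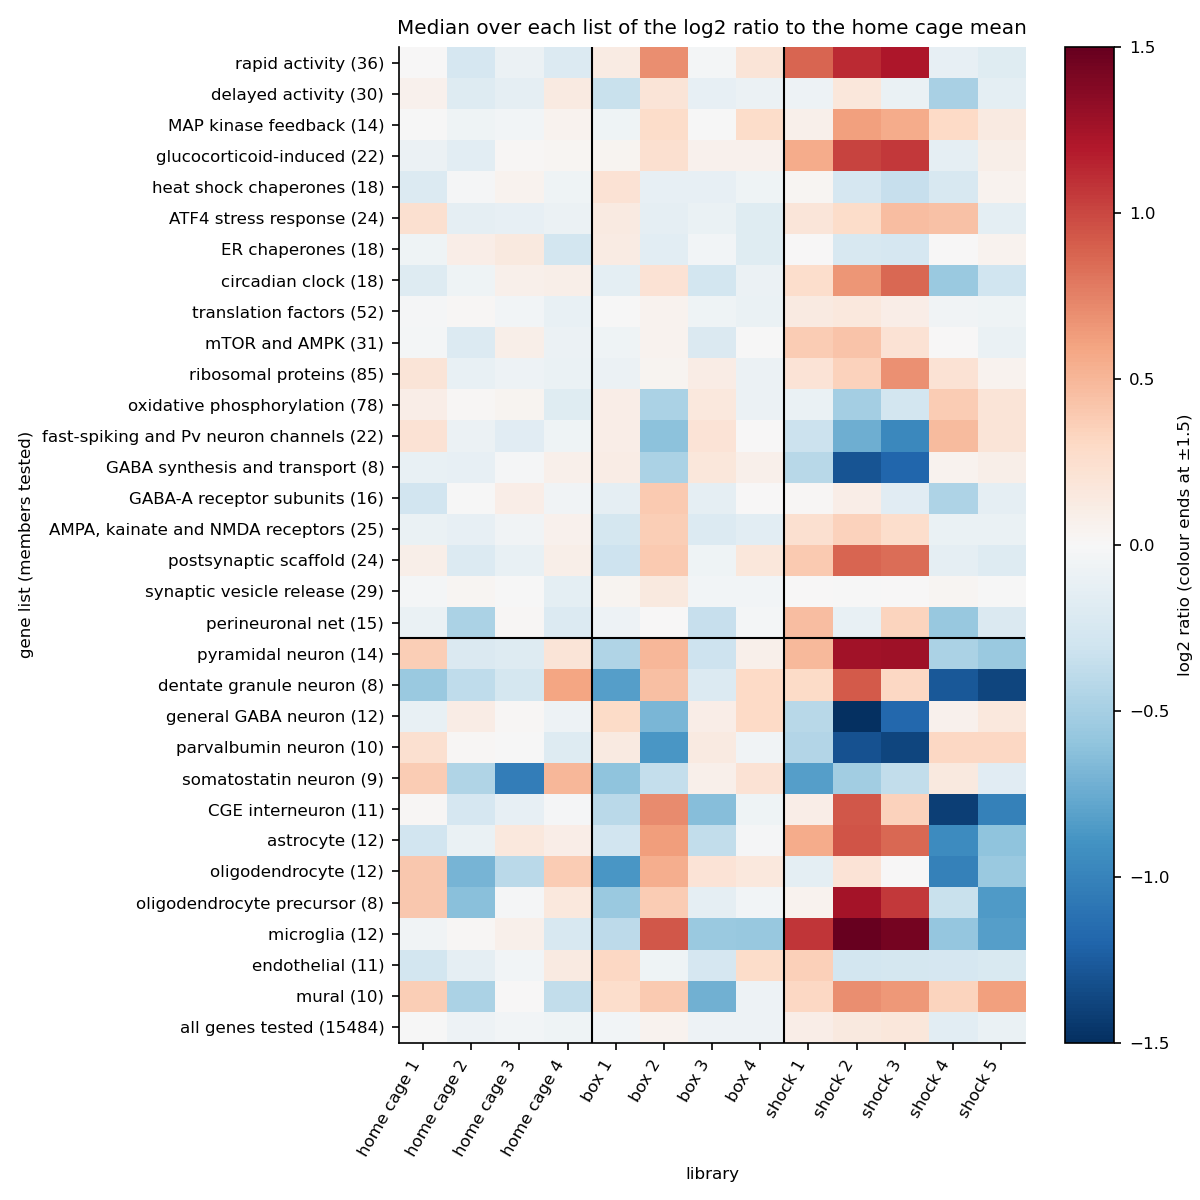
Median over each gene list of the log2 ratio of CPM to the home cage mean (0.5 added to both), for each purified library; the number of members tested is in brackets, and the lists under the horizontal line are cell type markers with all genes last. Shock libraries 1 to 3 are high in the rapid activity, glucocorticoid, scaffold, pyramidal, astrocyte and microglia rows and low in the parvalbumin neuron, general GABA and GABA synthesis rows; in the rapid activity row they are at 0.87, 1.12 and 1.21, and shock libraries 4 and 5 at -0.12 and -0.18.

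The translation apparatus differed by small amounts. Ribosomal protein genes were higher in 57 of 85 cases, with a median of 0.26 that was 0.15 without shock libraries 1 to 3 and 0.03 with the GC and length offsets. Rps26 alone had no overlap (47.8 to 62.4 and 67.7 to 127 CPM; 0.71 ± 0.17; DESeq2 adjusted p = 0.00414). Rps26 was thus 1 of 85 higher without overlap, beside 2.67% of all genes. Copies and pseudogenes make the values of ribosomal protein genes uncertain. Among 52 translation factors 23 were higher (median -0.05). Eef1a2, the elongation factor of mature neurons, was at 15.0 to 20.5 and 24.6 to 42.4 CPM (0.84 ± 0.23). The initiation factor subunit Eif3i was at 110 to 139 and 163 to 255 CPM (0.56 ± 0.17), while Eif5 was lower (-0.71 ± 0.20). Eef1a2 and Eif3i were the 2 of 52 higher without overlap, beside 2.67% of all genes. In the mTOR and AMPK list 18 of 31 were higher (median 0.07, and -0.10 without shock libraries 1 to 3), with Prkaa2 lower as above, Tsc2, a brake on mTOR, higher (0.84 ± 0.26) and the upstream kinase Stk11 higher (0.98 ± 0.32).

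Of the stress and energy lists, only oxidative phosphorylation had members without overlap, 2 of 78 higher, beside 2.67% of all genes. Heat shock chaperones were higher in 6 of 18 cases (median -0.13), led by Dnaja1, a cochaperone of Hsp70, at 584 to 1144 and 311 to 760 CPM (-0.91 ± 0.28). Chaperones of the endoplasmic reticulum were higher in 5 of 18 (median -0.18; Canx -0.75 ± 0.27) and genes of the ATF4 response in 15 of 24 (median 0.15, and -0.11 with the offsets; the serine synthesis enzyme Phgdh 1.003 ± 0.39). Of 78 genes of oxidative phosphorylation 29 were higher (median -0.06), and the list median was -0.48 without shock libraries 4 and 5 and 0.31 without 1 to 3. Limma voom called 13 of them lower, beside 1.99% of all genes. DESeq2 called 1 lower, beside 2.02% of the 7655 genes to which it gave an adjusted p. Among heat shock and endoplasmic reticulum chaperones, limma voom called 3 of 18 and 2 of 18 lower.

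The new context without shock gave values between the groups for some of these genes. Over the same fit 0 of 15484 genes (0.0%) differed between box and home cage (260 at an unadjusted p under 0.05, 1.68%). Both contrasts share the home cage libraries. Fos was at 53.0, 73.1, 34.3 and 30.4 CPM in the box libraries, a log2 difference from the home cage of 0.94 ± 0.29 (SE) beside 1.06 after shock. Egr1 differed by 0.64 ± 0.21 beside 0.86, Arc by 1.07 ± 0.41 beside 2.32, Junb by 0.69 ± 0.35 beside 1.76 and Nr4a1 by 0.75 ± 0.29 beside 1.48. Ier2 (0.10 ± 0.24), Dusp5 (0.10 ± 0.40), Per1 (-0.14 ± 0.30) and Dbp (0.15 ± 0.30) lay close to the home cage in the box group. Box library 2, with Pvalb at 374 CPM, resembled shock libraries 1 to 3 in its markers and had a rapid activity median of 0.70, against -0.03 to 0.20 in the other box libraries.

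The shock response of the purified fraction was then set against 3 other responses, each with its own home cage group. In the lysate of the same line (5 shock, 3 home cage), 1 of 17179 genes (0.00582%) passed, Fos, which rose by 2.01 ± 0.33 (SE; edgeR adjusted p = 0.0386). The purified minus lysate difference of the responses was called for 0 genes by edgeR (0.0%) and 242 by DESeq2, with 1333 (7.76%) at an unadjusted p under 0.05. This fit, and the SE from it, took purified and lysate libraries of the same condition and number as independent. With both fractions of a condition and number as a block, 0 genes were called and 847 had an unadjusted p under 0.05. Without the block, the purified minus lysate difference was -0.98 ± 0.41 for Fos, 0.74 ± 0.39 for Junb, 0.62 ± 0.49 for Arc and 0.07 ± 0.34 for Nr4a1. Among the genes with the smallest p, Ipo13 (1.55 ± 0.33), Zfp362 (1.24 ± 0.28) and Cntfr (1.10 ± 0.26) had positive differences, and Dstyk (-1.25 ± 0.30), the cytokine receptor subunit Il6st (-1.35 ± 0.35) and the phosphatase subunit Ppp1r15b (-0.99 ± 0.26) negative ones, all at edgeR adjusted p of 0.540 or above. Ipo13 had a lysate response of -0.08, and Cntfr one of -0.01. Ipo13, Cntfr and Dstyk had been chosen above by smallest p in these same purified libraries, which favours a larger difference here.

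In the purified Pvalb set labelled 60 min (6 shock, 6 home cage), 4534 of 16642 genes (27.2%) passed, and 38.4% had an unadjusted p under 0.05. The 15 min minus 60 min difference of the responses was called for 0 genes by edgeR (0.0%) and 264 by DESeq2, with 1531 (9.2%) at an unadjusted p under 0.05. Fos, Egr1, Nr4a1 and Dusp1 had 60 min responses of 0.31 ± 0.24, 0.12 ± 0.17, 0.31 ± 0.22 and 0.17 ± 0.21, none of them past the threshold, and differences between the sets of 0.80 ± 0.38, 0.79 ± 0.27, 1.21 ± 0.35 and 0.88 ± 0.32 (edgeR adjusted p from 0.453 to 0.510). Junb (0.93 ± 0.27), Arc (1.16 ± 0.32), Egr4 (1.14 ± 0.31), Ier2 (1.13 ± 0.26), Dusp5 (1.24 ± 0.30), Nfkbia (1.15 ± 0.25), Per1 (1.28 ± 0.23) and Dbp (1.22 ± 0.25) rose in the 60 min set. Prkaa2 fell by 1.57 on the log2 scale at 60 min, beside a difference of -1.30 at 15 min, and Gria3 by 0.67 beside -0.84. The gene with the smallest p for the difference between sets was Nanos1, a translational repressor, at 0.56 in the 15 min set and -1.04 in the 60 min set (difference 1.64 ± 0.30; edgeR adjusted p = 0.128), followed among higher genes by Ankfy1 (1.27 ± 0.30).

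In purified Camk2a libraries of the 15 min set (4 shock, 3 home cage), which carry RNA of excitatory neurons, 3 of 15798 genes (0.019%) passed. An unadjusted p under 0.05 was reached by 9.28%. Total counts of these 7 libraries ran from 9043042 to 115612800 (median 71403700), so at least 1 was far shallower than the Pvalb libraries. The part of depth in the values below was not tested. The Pvalb minus Camk2a difference was called for 0 genes by edgeR (0.0%) and 216 by DESeq2, with 965 (6.11%) at an unadjusted p under 0.05. Fos responded with 2.92 ± 0.62 in the Camk2a fraction, a difference of -1.86 ± 0.75, and Ier2, which passed there, with 2.78 ± 0.48, a difference of -1.94 ± 0.59. Junb (2.09 ± 0.57), Arc (1.95 ± 0.45), Egr1 (0.70 ± 0.22) and Dusp1 (1.22 ± 0.36) had Camk2a responses within 1 SE of the difference from those of the Pvalb fraction. Nr4a1 differed by 0.73 ± 0.35 and Ipo13 by 1.46 ± 0.37, with the larger response in the Pvalb fraction (edgeR adjusted p of 0.754 or above). Both had been chosen above by smallest p in these same Pvalb libraries, which favours a larger Pvalb response. The smallest p in this comparison belonged to genes at or near 0 in 1 of the Camk2a groups, such as Rtp4, Tlr3, Fgd5, Cyr61, Fzd6, Bend7 and Klhdc7a, for which no fold is given.

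**Figure D5:**
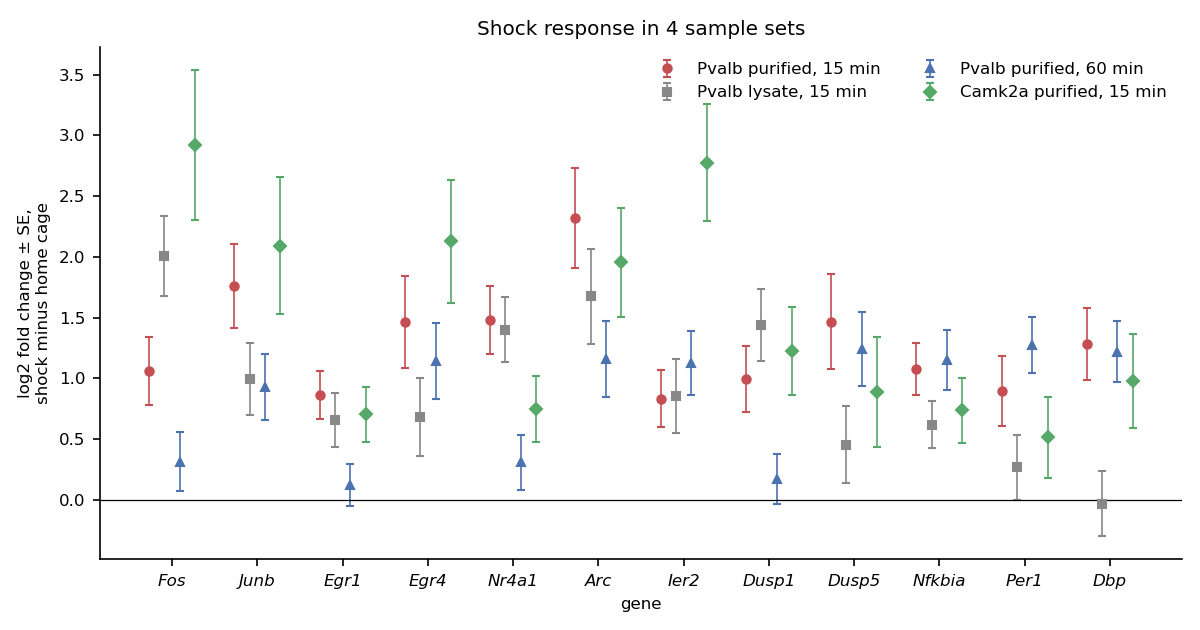
Log2 fold change ± SE, shock minus home cage, of 12 genes in 4 sample sets, each with its own home cage group: purified Pvalb at 15 min, Pvalb lysate at 15 min, purified Pvalb at 60 min and purified Camk2a at 15 min. Fos is at 1.06 in the purified Pvalb 15 min set, 2.01 in the lysate, 0.31 at 60 min and 2.92 in the Camk2a fraction, while Dbp is near 0 only in the lysate among the 4.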

How the data were processed

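Nextera XT libraries of polyadenylated RNA, purified on tagged ribosomes or taken from whole lysate, were counted per gene. The authors deposited raw counts. The submitters' processing notes name featureCounts, the aligner STAR (2.7.7a), the GRCm38 build and DESeq2; the settings are not given in the sources used here. Library preparation did not mark the strand. From the deposited counts, genes were kept by filterByExpr, scaled by TMM and tested with edgeR 4.0.16 (quasi-likelihood, robust) in R 4.3.3, with Benjamini-Hochberg adjustment at 0.05, over the 3 conditions of the purified 15 min table. Differences of responses were contrasts in joint fits. DESeq2 1.42.0, limma 3.58.1 (voom with quality weights), other scalings and filters, covariates, GC and length offsets and the omission of each library were alternatives. Levels are CPM on the total counts of each library without TMM scaling, and overlap between groups was judged on the same CPM. 1 lysate home cage column and 2 purified 60 min home cage columns were matched to their group only. Scripts were tested on simulated data. Libraries were grouped by their labels; a p-value here reflects only how these samples vary. No library pair agreed within sampling noise.

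The members and gene lists were chosen with earlier results of these data known. Genes named were the 12 higher and 12 lower genes with the smallest p among autosomal genes without overlap between groups, up to 4 members with the smallest p in each list, up to 4 per direction for each difference of responses, likewise for each tool that called genes edgeR did not, and fixed activity and marker genes. Lists not described further in the report were the somatostatin, CGE, dentate, oligodendrocyte, precursor, endothelial, mural and choroid markers. They had 0 members called by edgeR, which follows from its 0 calls over all genes. Their median log2 fold changes, in that order, were -0.49, 0.01, 0.07, -0.31, 0.30, -0.05, 0.32 and -0.004. Gene coordinates are from GENCODE M21; promoter sequences are from RefSeq, GRCm38.p6. Same-numbered shock and home cage libraries did not deviate together (r from -0.0392 to 0.0559).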

Additional observations from a re-analysis of the deposited data

Results flagged for a closer look

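In groups of 4 or 5 libraries, 159 groups of values were examined for 1 library far from the rest, and 3 were found; chance gives about 1 in 20. Creld1 was at 104.9 CPM in home cage library 1 and at 72.6 to 75.2 CPM in the other 3. Scaf1 was at 53.1 CPM in box library 1 and at 44.5 to 44.6 CPM in the other 3. The parvalbumin neuron score, a mean log2 CPM, was 6.19 in box library 2 and 7.09 to 7.22 in the other 3.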

How the results depend on the processing

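The count of genes called between shock and home cage was 0 with edgeR and 390 with DESeq2, 550 with limma voom, 4 with the own-class covariate, 3 with the non-neuronal covariate, 1 without shock libraries 1 to 3 and 1668 without shock libraries 4 and 5; omission of 1 library at a time gave 0 to 6. With the GC slope as a covariate, with own-class and GC covariates, and with GC and length offsets it was 0 (363, 719 and 859 at an unadjusted p under 0.05). With the replicate number as a block it was 0 (3347 at an unadjusted p under 0.05). A block gave 0 calls for the lysate, 60 min and Camk2a differences (847, 1164 and 1443 unadjusted). For the lysate difference it joined both fractions of a condition and number, and for the others it was the number within a line and set. These differences had 242, 264 and 216 calls by DESeq2, and 0 to 1, 0 to 1 and 0 to 0 when 1 library was left out; the 1 was Ccl6, without home cage library 4. All 24 genes named as higher or lower in every library kept their direction in 24 settings. They were chosen for groups without overlap in these same libraries, so the settings that leave libraries out could hardly turn them. Single values that changed sign were Bdnf (-0.076 to 0.41 when 1 library was left out, -0.20 own-class covariate, -0.22 pyramidal covariate, -0.68 without shock libraries 1 to 3, -0.013 own-class and GC covariates), Camk2a (-0.049, -0.078, -0.52 and -0.32 in the last 4 of these, -0.20 GC covariate, -0.087 offsets), Homer1 (-0.24 to 0.019 when 1 library was left out, 0.092 without shock libraries 4 and 5, 0.13 offsets), Npas4 (-0.055 own-class covariate, -1.30 without shock libraries 1 to 3, -0.085 GC covariate, -0.86 both covariates) and Pvalb (0.52 without shock libraries 1 to 3). Score differences that changed sign were non-neuronal (-0.062 with TMM) and, when 1 library was left out, non-neuronal (-0.11 to 0.29), somatostatin (-0.42 to 0.014), dentate (-0.65 to 0.082), oligodendrocyte (-0.38 to 0.027), choroid (-1.51 to 0.32), oligodendrocyte precursor (-0.050 to 0.54) and CGE (-0.44 to 0.23). Of 768 list medians under alternatives 44 differed from the reported one by more than the spread between libraries. Without shock libraries 1 to 3 the medians of the rapid activity, scaffold, clock, fast-spiking, GABA synthesis, perineuronal net, mTOR and oxidative phosphorylation lists changed sign, as did those of the parvalbumin, general GABA, pyramidal, astrocyte and microglia markers, among others. The causes were not tested.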
